A study of Mus musculus with 11 samples.

Results

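The positions described here were the Cbfb binding positions of mouse regulatory T (Treg) cells with the highest scores that had neither a strong Elf1 or Ets1 position nor a Foxp3 peak beside them. They are called isolated Cbfb positions below. They were chosen by measured values: the 10000 highest scores in the Treg Cbfb list were taken, those with 1 of the 20000 highest Elf1 or Ets1 positions of either cell type within 200 bp were removed, and so were those with the midpoint of a Foxp3 interval within 1 kb. This left 9099 of the 10000 positions, out of 161760 deposited for that library. The other 901 are called co-located Cbfb positions, and the 20000 highest positions of an Elf1 or Ets1 list its strong ETS positions.

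Cbfb does not bind DNA itself: it pairs with Runx proteins and raises their affinity for DNA. In T cells Runx proteins with Cbfb take part in silencing Cd4 in the CD8 lineage, and in Treg cells in the expression of Foxp3. Ets1 and Elf1 belong to the ETS family of transcription factors, and Ets1 and Runx1 are known to bind side by side at T cell receptor enhancers.

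The data came from chromatin immunoprecipitation and sequencing (ChIP-seq) of primary CD4 T cells of mice about 8 weeks old, taken from spleen and lymph nodes and sorted by a GFP reporter of Foxp3. Foxp3-positive Treg cells gave the Cbfb, Elf1 and Ets1 lists and 1 Foxp3 list of 2886 intervals that the authors made from combined replicates, and Foxp3-negative CD4 T cells gave a second pair of Elf1 and Ets1 lists. The sources used here do not say whether animals were pooled. Each list other than Foxp3 came from 1 library, so no difference below has a replicate check and no p-value is given. A CD4 Cbfb library, described as low in quality by its label, was not analysed here, so nothing can be said of these positions in cells without Foxp3.

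For each position the authors deposited a score, a false discovery rate (FDR), a fold enrichment over a control that is not named, and the lower bound of that fold enrichment. The number of reads behind a position is unknown. Intervals in brackets are exact 95% intervals, binomial for shares and Poisson for counts, and cover counting error only. All coordinates are those of the files, in mouse build mm9, and gene names are left out because the available annotation was made on a later build. Motifs and sequences at the positions were not analysed, since no mm9 genome was used here.

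Most of the 10000 highest Cbfb scores were isolated, but the very highest were not. Of the 100 highest Cbfb scores only 15 were isolated positions (15%, 8.65 to 23.5). The share was 72.8% (68.1 to 77.1) at ranks 101 to 500, 82.8% at ranks 501 to 1000 and 87.7% at ranks 1001 to 2000. From rank 2001 to rank 10000 it stayed between 91.4 and 96.1% in each group of 1000. Beyond rank 10000, 95.9% of ranks 10001 to 20000 and 97.0% of ranks 120001 to 161760 met the same distance criteria. These shares follow from the rule and are given as a description.

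**Figure D1:**
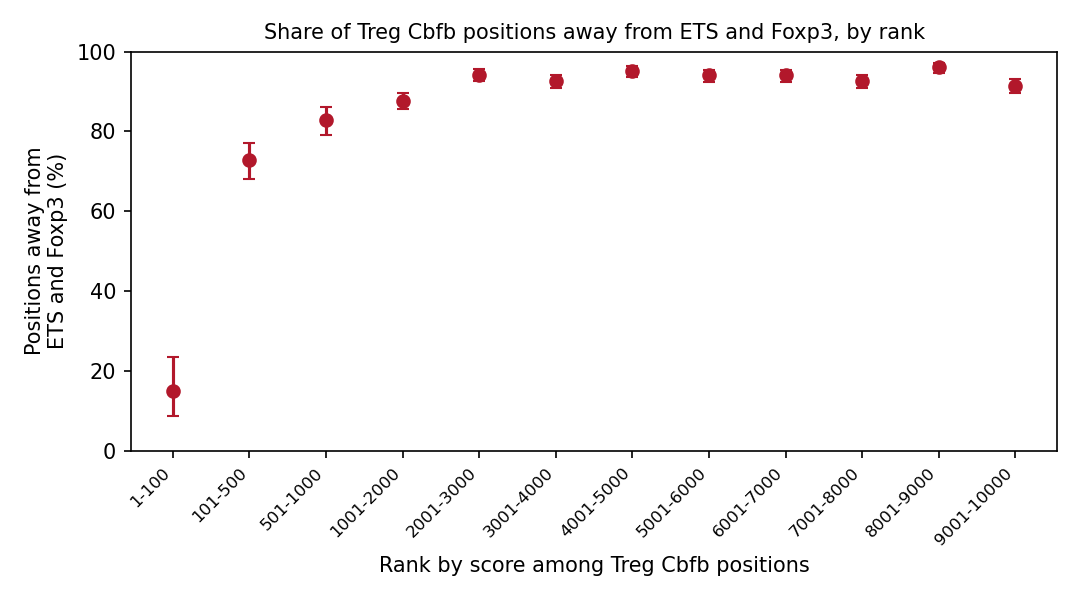
Share of Treg Cbfb positions (vertical axis, percent, with exact 95% intervals) that lay away from the 20000 highest Elf1 and Ets1 positions and from Foxp3, by rank of the Cbfb score (horizontal axis). The share was 15% among the 100 highest scores and between 91.4 and 96.1% in every group of 1000 from rank 2001 on.

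The ETS criterion did most of the removing. Of the 10000 positions, 862 had a strong Elf1 or Ets1 position within 200 bp and 351 had a Foxp3 midpoint within 1 kb. Both held for 312, so only 39 positions were removed on account of Foxp3 alone. By library, 435 had a strong Treg Elf1 position, 523 a Treg Ets1 position, 564 a CD4 Elf1 position and 623 a CD4 Ets1 position. Co-located positions often had several partners: 245 had a strong position of all 4 ETS lists and 258 of a single one.

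Few positions lay at the limits of the rule. The lowest score in the list was 3.996, and 32 positions tied at exactly that value: 26 fell inside and 6 outside by order of coordinate, all 32 of them away from ETS and Foxp3. The isolated position closest to a strong ETS position lay at 201 bp and had a fold enrichment of 28.7, and the farthest one removed lay at 199 bp with 9.58. At most 50 bp beyond the ETS limit there were 51 isolated positions, and at most 50 bp inside it 55 removed positions, and the median fold enrichment was 4.85 in both. The isolated position closest to a Foxp3 midpoint lay at 1045 bp, and the farthest one removed for Foxp3 alone lay at 933 bp.

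With the roles of the libraries exchanged, the share left by the rule was highest for Cbfb. Isolated positions made up 91.0% (90.4 to 91.5) of the 10000 highest Cbfb positions. The same criteria, applied to the 10000 highest positions of each ETS library against the other 4 libraries and Foxp3, left 18.1% (17.3 to 18.9) for Treg Elf1, 31.0% (30.1 to 31.9) for Treg Ets1, 10.2% (9.60 to 10.8) for CD4 Elf1 and 13.4% (12.7 to 14.1) for CD4 Ets1. Each ETS library was set against 3 ETS lists, of which 1 was its own factor in the other cell type. Cbfb was set against 4 ETS lists and no second Cbfb list. The score at rank 10000 was 3.996 for Cbfb, and 6.78, 6.14, 15.1 and 11.5 for the ETS libraries in the order above. For Cbfb the share also depended on rank, with 15% at ranks 1 to 100. The 5 shares thus do not rest on equal comparisons.

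The isolated positions were modestly enriched, and many were not clearly above the control. Their fold enrichment had a median of 5.75, with quartiles of 3.66 and 9.58, against a median of 4.70 with quartiles of 3.19 and 7.84 at co-located positions. Their scores were lower, with a median of 4.66 and a maximum of 10.2, against a median of 5.04 and a maximum of 373 at co-located positions. In the isolated set 84 positions had a fold enrichment under 1, that is, below the control, and 2655 had less than 4-fold. The 6444 with at least 4-fold made up 70.8% (69.9 to 71.8), against 62.6% (59.3 to 65.8) of co-located positions and 50.7% of all deposited Cbfb positions. The next 10000 scores were enriched to a like degree: the Cbfb positions of ranks 10001 to 20000 that met the same distance criteria had a median of 6.10, and 70.1% (69.1 to 71.0) of them had at least 4-fold. A fold enrichment of at least 20 was found at 10.7% (10.04 to 11.3) of isolated positions and 13.7% (13.0 to 14.4) of those of ranks 10001 to 20000, against 4.14% of all deposited Cbfb positions.

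The lower bound of the fold enrichment was above 1 at 5909 isolated positions, 64.9% (64.0 to 65.9), against 68.8% (65.7 to 71.8) of co-located positions, 56.3% (55.3 to 57.3) of positions of ranks 10001 to 20000 away from ETS and Foxp3, and 31.8% of all deposited Cbfb positions. At the remaining 3190 isolated positions the authors' lower bound allowed no enrichment at all, although every isolated position had an FDR of at most 0.000561. Among the 10000 highest positions of the other libraries the share above 1 was 98.9% for Treg Elf1, 99.8% for CD4 Elf1, 95.7% for CD4 Ets1 and 77.7% for Treg Ets1. The low share was thus a property of both parts of the Cbfb list, and was nearest to that of Treg Ets1. Within the isolated set it was lower at later ranks: it was 15 of 15 positions among the 100 highest scores, 79.2% at ranks 1 to 1000, 70.2% at ranks 1001 to 5000 and 58.6% at ranks 5001 to 10000.

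**Figure D2:**
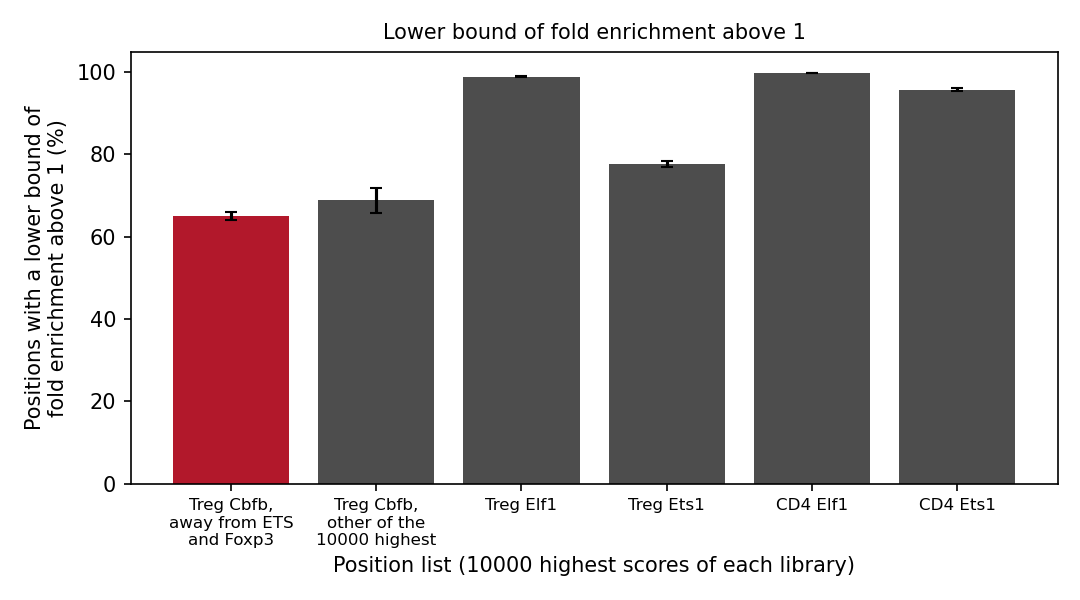
Share of positions whose lower bound of fold enrichment was above 1 (bars, percent, with exact 95% intervals), for isolated Treg Cbfb positions, co-located Treg Cbfb positions and the 10000 highest positions of the 4 ETS libraries. It was 64.9% and 68.8% in the 2 Cbfb sets, 77.7% in Treg Ets1 and over 95% in the other 3.

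Fold enrichments in the isolated set were coarse. With values counted as equal when they were the same at 6 decimals, the 9099 positions took only 90 different values, and the 10 commonest values covered 61.3% of them. The commonest, 9.58, was shared by 865 positions, all with the same lower bound of 2.00, and the highly enriched value of 28.7 by 428 positions, all with a lower bound of 4.11. The 901 co-located positions took 144 values, and the 10000 highest positions of the ETS libraries between 398 (Treg Ets1) and 881 (CD4 Elf1). A fold enrichment at an isolated position is therefore best read together with its lower bound. Score and fold enrichment ranked the isolated positions differently: Spearman's rho between them was 0.19 over the 9099 positions, which share 1 library and its control.

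The isolated positions were called away from ETS on the 20000 highest positions of each list, and weaker ETS positions did occur beside some of them. Weaker means here a lower rank by score, whatever the fold enrichment. An Elf1 or Ets1 position of lower rank lay within 200 bp of 1830 isolated positions, 20.1% (19.3 to 20.95). The background was close to this: over all 156460 deposited Cbfb positions that met the same distance criteria the share was 17.9%. It was 16.0% (15.3 to 16.7) among those of the 10000 lowest Cbfb scores, and 19.98% (19.2 to 20.8) at ranks 10001 to 20000. The share was 51.4% (48.1 to 54.7) at co-located positions, which the rule had placed there for a strong ETS position or a Foxp3 peak beside them, so this gap is no finding about the isolated ones.

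By library the isolated positions had a weaker Treg Elf1 position in 4.42% of cases, Treg Ets1 in 5.84%, CD4 Elf1 in 6.36% and CD4 Ets1 in 6.70%. This order is also that of the lengths of the lists, which held 167745, 206148, 221359 and 222086 positions below rank 20000. Among the lowest Cbfb scores away from ETS and Foxp3 the same order was found, at 3.76, 4.35, 4.83 and 5.27%. At ranks 10001 to 20000 the shares were 4.42, 6.10, 5.99 and 6.50%, with Treg Ets1 above CD4 Elf1.

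Weaker ETS positions recurred at few isolated positions. None of the 4 libraries had one within 200 bp of 7269 isolated positions, 1 library had one at 1574, 2 libraries at 222, 3 at 32 and all 4 at 2. At least 2 libraries were present at 2.81% (2.48 to 3.17) of isolated positions, against 2.70% (2.38 to 3.04) at ranks 10001 to 20000 and 2.00% (1.73 to 2.29) of the lowest Cbfb scores, both away from ETS and Foxp3. No ETS position of any rank lay within 1 kb of 3741 isolated positions, 41.1% (40.1 to 42.1), against 44.7% (44.5 to 44.96) of all deposited Cbfb positions away from ETS and Foxp3. None lay within 10 kb of 82 isolated positions, 0.901% (0.717 to 1.12), against 1.28% (1.23 to 1.34).

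The distance profile showed a small, narrow excess of weaker ETS positions at the isolated positions themselves. Within 100 bp there were 1214 of them, or 13.3 per 100 isolated positions (12.6 to 14.1). Between 1 and 2 kb away the mean was 9.01 per 100 isolated positions in each step of 100 bp, so the closest step held 1.48 times as many (1.40 to 1.57). The interval of this ratio, and of those below, covers the count of the closest step only and takes the 1 to 2 kb level as fixed. The second step, over 100 to 200 bp, was already at 10.2, close to the 9.63 to 10.1 found out to 1 kb. These steps lay above 9.01 too, so the ratio also holds a smaller and broader rise. Around the lowest Cbfb scores away from ETS and Foxp3 the ratio was 1.04 (0.969 to 1.11), and around co-located positions, which the rule placed beside ETS positions or Foxp3, it was 2.18 (1.97 to 2.41). The profile was not computed for ranks 10001 to 20000. There, away from ETS and Foxp3, 12.5% (11.8 to 13.1) of positions had a weaker ETS position within 100 bp. The share was 12.1% (11.5 to 12.8) at isolated positions and 8.30% (7.76 to 8.87) for the lowest scores. By this share the isolated positions did not stand above the ranks that follow them.

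**Figure D3:**
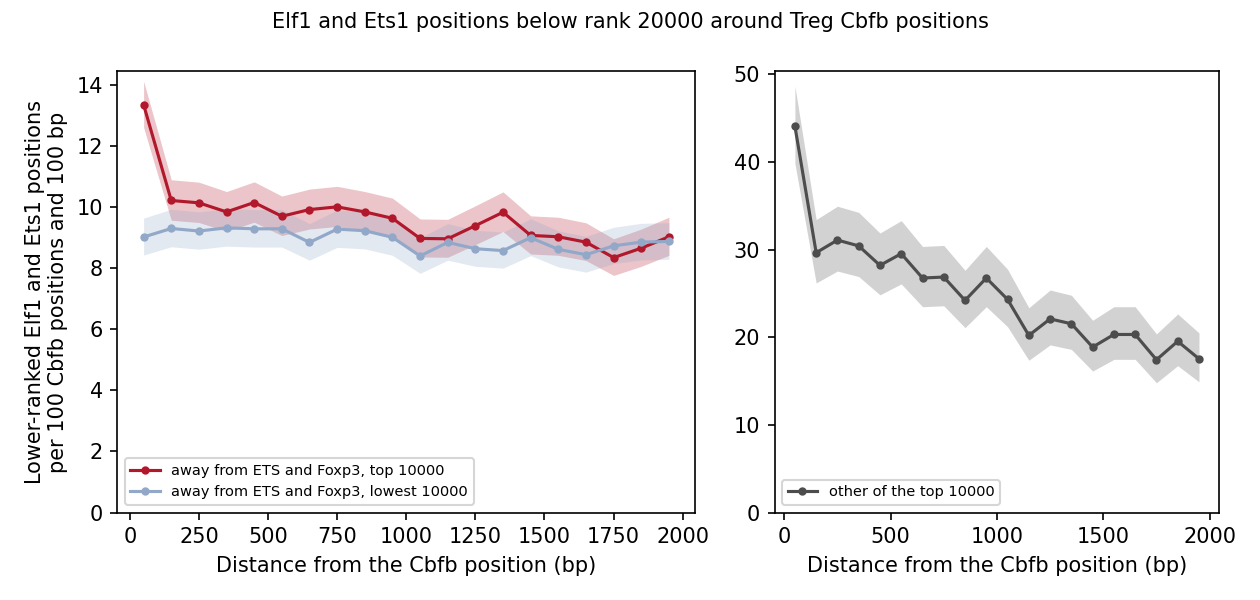
Elf1 and Ets1 positions below rank 20000 of the 4 ETS lists, per 100 Cbfb positions and 100 bp step of distance on both sides (vertical axes, which differ between the panels; shaded bands are exact Poisson 95% intervals), against the distance from the Cbfb position. Isolated positions (left, red) reached 13.3 in the first step and about 9 to 10 beyond it, the lowest Cbfb scores (left, blue) had no such step, and co-located positions (right) reached 44.1.

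The excess was present for each ETS list. The ratio of the first 100 bp to the 1 to 2 kb level was 1.33 (1.16 to 1.52) for Treg Elf1, 1.47 (1.31 to 1.65) for Treg Ets1, 1.58 (1.41 to 1.75) for CD4 Elf1 and 1.51 (1.36 to 1.68) for CD4 Ets1. These intervals overlap, which is no test of a difference. With 1 library behind each list, Treg cells and cells without Foxp3 cannot be compared by this measure. Nor was it confined to ETS positions just below the limit: ETS positions ranked 20001 to 40000 gave 1.64 (1.39 to 1.93), those ranked 40001 to 80000 gave 1.59 (1.40 to 1.79), those ranked 80001 to 160000 gave 1.39 (1.27 to 1.53), and all later ones gave 1.47 (1.32 to 1.63).

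By Cbfb rank, isolated positions of rank 1 to 1000 had a ratio of 1.70 (1.41 to 2.03), those of rank 1001 to 5000 had 1.55 (1.42 to 1.69), and those of rank 5001 to 10000 had 1.39 (1.28 to 1.51), with intervals that overlap. Isolated positions with a lower bound above 1 had a ratio of 1.55 (1.45 to 1.66), and those with a lower bound of at most 1 had 1.35 (1.22 to 1.49). For Treg Elf1 alone these were 1.52 (1.29 to 1.77) and 1.01 (0.780 to 1.298). The excess was thus also present, for all 4 lists together, where the Cbfb enrichment itself was uncertain.

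Beyond the 1 kb limit, Foxp3 peaks were rare near isolated positions and near weaker Cbfb positions. A Foxp3 midpoint lay over 1 and up to 5 kb away from 127 isolated positions, 1.40% (1.16 to 1.66). The share was 1.10% (1.05 to 1.16) for all deposited Cbfb positions away from ETS and Foxp3. Among these it was 0.949% (0.764 to 1.16) at ranks 10001 to 20000 and 1.52% (1.29 to 1.78) for the lowest scores. The nearest Foxp3 midpoint was over 50 kb away, or none lay on the chromosome, for 90.4% (89.8 to 91.0) of isolated positions. This was close to the 91.3% (91.2 to 91.5) of all deposited Cbfb positions away from ETS and Foxp3, the 91.9% (91.3 to 92.4) at ranks 10001 to 20000 and the 89.9% (89.3 to 90.5) of the lowest scores. Co-located positions are not set beside these shares, since 351 of the 901 had a Foxp3 midpoint within 1 kb by the rule.

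The isolated positions were spread far more evenly over the genome than ETS positions. Over the numbered chromosomes and X there were 35.3 per 10 Mb (34.6 to 36.0). The lowest density was 24.3 (21.9 to 26.9) on chromosome 7 and the highest 42.0 (38.8 to 45.3) on chromosome 3, a ratio of 1.73. The 10000 highest positions of the ETS libraries all had their lowest density on X and their highest on chromosome 11, with ratios of 4.95 for Treg Elf1, 4.06 for Treg Ets1, 7.56 for CD4 Elf1 and 9.33 for CD4 Ets1. Isolated positions had 36.3 per 10 Mb (33.4 to 39.3) on X and 37.4 (34.0 to 41.1) on chromosome 11. Co-located Cbfb positions had the extremes of the ETS lists, in small numbers. They ran from 1.90 per 10 Mb on X (31 positions) to 6.31 on chromosome 11 (75 positions), a ratio of 3.33. The rule had thus taken positions with those extremes out of the isolated set.

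**Figure D4:**
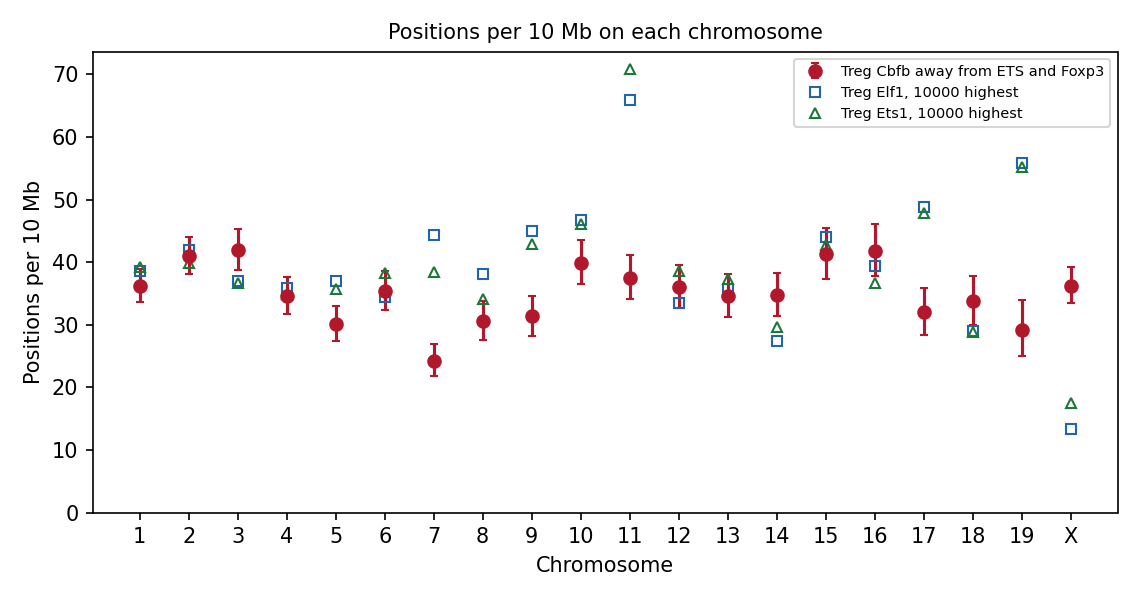
Positions per 10 Mb (vertical axis) on each chromosome for isolated Treg Cbfb positions (red, with exact Poisson 95% intervals) and for the 10000 highest Treg Elf1 and Ets1 positions (open symbols). Isolated Cbfb positions ran from 24.3 to 42.0, while Treg Elf1 ran from 13.3 on X to 66.0 on chromosome 11 and Treg Ets1 from 17.4 to 70.8.

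The same evenness was seen in windows of 1 Mb. The 2547 windows held a median of 3 isolated positions and at most 17, and 176 windows (6.91%) held none. The variance of the count was 1.43 times its mean. For the 10000 highest positions of Treg Elf1, Treg Ets1, CD4 Elf1 and CD4 Ets1 this ratio was 5.85, 7.30, 7.15 and 8.04, and 605, 610, 931 and 946 windows were empty. The 10000 lowest Cbfb scores had a ratio of 1.75. Counts of isolated positions hardly moved with those of Treg Elf1 or Treg Ets1 across the windows (Pearson's r 0.057 and 0.070). The rule had removed the Cbfb positions beside strong positions of these same lists, and for the co-located positions r was 0.54 and 0.52. The low r of the isolated positions is therefore not independent of the rule. For the 10000 lowest Cbfb scores, which include positions beside ETS, r was 0.15 and 0.14. These correlations are descriptions over 2547 windows, which all the lists share.

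**Figure D5:**
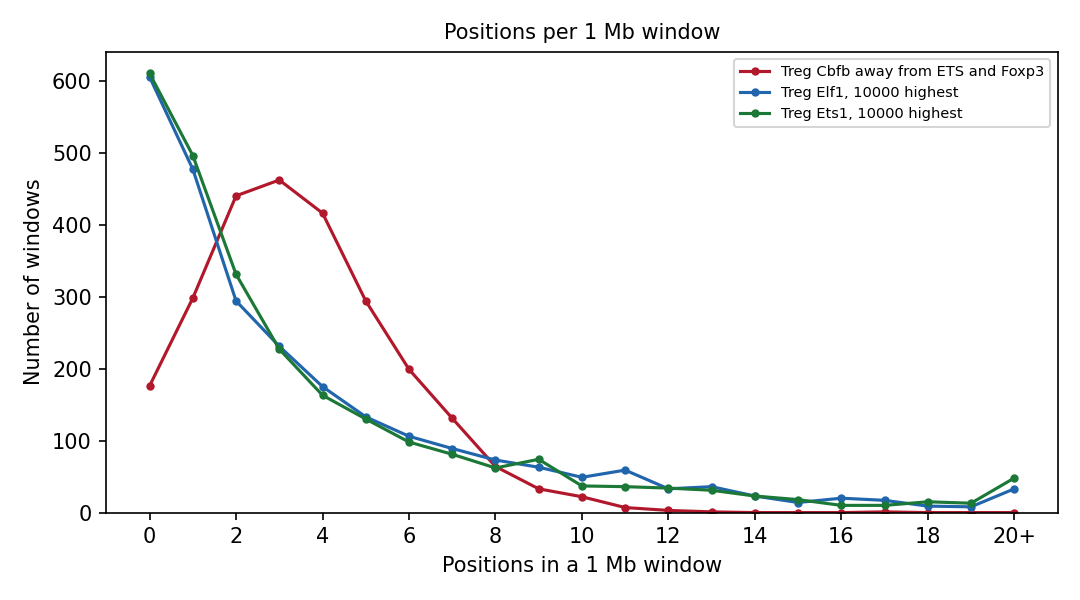
Number of 1 Mb windows (vertical axis) by the number of positions they held (horizontal axis, 20 or more in the last point), for isolated Treg Cbfb positions and the 10000 highest Treg Elf1 and Ets1 positions. Isolated positions peaked at 3 per window and left 176 windows empty, while the Elf1 and Ets1 lists had their largest numbers of windows, 605 and 610, at 0.

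Few isolated positions had a neighbour of their own kind. Another one lay within 10 kb of 758, or 8.33% (7.77 to 8.92). The 10000 highest Cbfb positions, isolated and co-located together, were also sparse, at 10.45% (9.86 to 11.1). Among the 10000 highest positions this share was 36.2% for Treg Elf1, 45.55% for Treg Ets1, 37.4% for CD4 Elf1 and 48.45% for CD4 Ets1. Within 1 kb it was 1.25% for isolated positions, 1.92% for the 10000 highest Cbfb positions and between 12.3 and 24.45% in the ETS lists. With gaps of at most 10 kb there were 350 pairs, 16 groups of 3, 1 group of 4 and 1 group of 6.

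The group of 6 lay on chromosome X between 7157251 and 7160176, a stretch of 2925 bp. From the first to the last position, the fold enrichments were 14.8, 18.3, 18.3, 16.5, 14.8 and 13.1, with lower bounds between 2.16 and 4.66, and the first had rank 115 in the whole Cbfb list. All 6 were thus more enriched than the median isolated position. A co-located Cbfb position at 7158837, with 12.02-fold and a strong ETS position 17 bp away, lay among them. In all the stretch held 9 deposited Cbfb positions, 8 of them among the 20000 highest scores. The strong ETS positions nearest to the 6 lay between 215 and 843 bp away, and Foxp3 midpoints between 1045 and 3970 bp. Weaker ETS positions lay closer to the first 3 of the 6, at 28, 13 and 8 bp. Within the stretch Treg Elf1 had 3 deposited positions of any rank with up to 26.9-fold and Treg Ets1 6 with up to 14.0-fold. CD4 Elf1 had 4 with up to 10.5-fold and CD4 Ets1 2 with up to 4.45-fold. The 6 were thus isolated only by their distance from strong ETS positions and Foxp3 midpoints, within a region that held positions of all 4 ETS libraries.

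The group of 4 was of another kind. It lay on chromosome 15 between 50232539 and 50247647, over 2.5 Mb from any Foxp3 midpoint. Its fold enrichments, in order of position, were 3.66, 5.75, 4.85 and 2.61, and the lowest of its lower bounds was 0.505.

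Isolated positions on X had higher fold enrichments than those elsewhere, though they were not more frequent, and so did the rest of the Cbfb list. Their median fold enrichment was 9.58 on X (593 positions) and 5.75 on the numbered chromosomes (8491 positions), where the medians of single chromosomes ran from 4.70 to 5.75. A fold enrichment of at least 20 was found at 26.0% (22.5 to 29.7) of isolated positions on X and 9.60% (8.98 to 10.2) of those on numbered chromosomes. Among single numbered chromosomes the share ran from 6.68 to 12.8%. The median score differed little, at 4.69 on X and 4.65 on the numbered chromosomes. Over all deposited Cbfb positions the share at 20-fold or more was 9.51% on X and 3.78% on numbered chromosomes, with medians of 6.10 and 3.66. Among co-located positions it was 48.4% of 31 on X and 6.21% of 854 on numbered chromosomes. All 4 ETS libraries moved the same way: the share at 20-fold or more was 47.2% on X and 30.8% elsewhere for Treg Elf1, 25.3 and 9.84% for Treg Ets1, 55.8 and 38.5% for CD4 Elf1, and 33.1 and 15.4% for CD4 Ets1. The control behind these fold enrichments is not named, and its part in the values on X was not tested.

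The 10 isolated positions with the highest scores had ranks 64 to 91 in the Cbfb list and fold enrichments from 8.88 to 96.7, all with a lower bound of at least 2.52. The first lay on chromosome 4 at 154597367, with 96.7-fold and a lower bound of 17.1, the highest of both in the isolated set. A Treg Elf1 position with 31.8-fold lay 1 bp from it, but at rank 155920 of that list. A Treg Ets1 position with 4.22-fold lay 123 bp away and a CD4 Ets1 position with 1.54-fold 170 bp away. A CD4 Elf1 position 317 bp away, strong by its rank of 17634, had 2.56-fold.

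The second position, on chromosome 6 at 44963110, had 20.03-fold (lower bound 5.20) and no ETS position of any rank within 2262 bp. The third, on X at 66639370, had 44.4-fold and a CD4 Ets1 position of 8.50-fold at 192 bp. The fourth, on chromosome 3 at 112152508, also had 44.4-fold, with a Treg Ets1 position of 9.99-fold 1 bp away. These 4 differed in whether weak ETS positions stood beside them.

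The fifth, on chromosome 10 at 80085241, had 12.02-fold (lower bound 3.69) and was 1 of the 2 isolated positions with weaker positions of all 4 ETS libraries within 200 bp. They lay 13 bp (Treg Elf1, 5.38-fold), 58 bp (Treg Ets1, 4.28-fold), 5 bp (CD4 Elf1, 8.95-fold) and 30 bp away (CD4 Ets1, 3.29-fold), at ranks between 28890 and 57469, and a strong ETS position lay at 324 bp. The other of the 2, singled out after its values were seen, lay on chromosome 7 at 104548442 with 1.87-fold and a lower bound of 0.260. The first of the 2 thus had a lower bound well above 1, and the other a lower bound below 1.

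Of the remaining 5 of the 10 highest scores, 4 had no ETS position of any rank within 200 bp. The sixth score, at 36593698 of chromosome 6, had 8.88-fold, and the seventh, at 14002653 of chromosome 13, had 11.3-fold. The eighth, at 41587259 of chromosome 4, had 23.5-fold, the ninth, at 98302703 of chromosome 12, had 39.2-fold, and the tenth, at 21716293 of chromosome 18, had 13.1-fold. The position on chromosome 13 had no ETS position of any rank within 12218 bp, and the one on chromosome 12 none within 1320 bp. The one on chromosome 18 had a CD4 Elf1 position of 1.18-fold at 139 bp. In all, 5 of the 10 had a weaker ETS position within 200 bp and 4 had no ETS position within 1 kb.

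Ranked by the lower bound of fold enrichment, 6 isolated positions stood above 7.08, and 16 tied at that value. Behind the position on chromosome 4 came 2 on chromosome 6, at 130286633 and 132862663, both with 54.9-fold and a lower bound of 9.08. The next 3 had 49.6-fold and a lower bound of 8.08, on chromosome 18 at 28726157, chromosome 4 at 18193619 and X at 56933999. Their ranks by score were 3175, 8663 and 8878, so strong enrichment was also found near the end of the list. The position at 130286633 had no ETS position of any rank within 2888 bp, that at 28726157 none within 4336 bp and that at 18193619 none within 1713 bp. In the first 10 by lower bound, with ties settled by score, 3 had a weaker ETS position within 200 bp and 5 had none within 1 kb.

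The isolated positions farthest from any Elf1 or Ets1 position, whatever its rank, were between 22771 and 26085 bp from the nearest one. The farthest, at 44101542 of chromosome 14, had 6.79-fold. The next, 25220 bp away at 131689492 of chromosome 4, had 28.7-fold. The third, at 71720013 of chromosome 11, had 2.61-fold, the fourth, at 53966324 of chromosome 14, had 9.58-fold, and the fifth, at 112236578 of chromosome 6, had 4.70-fold. Their lower bounds ran from 0.732 to 4.11, so remoteness from ETS positions went with strong and with weak Cbfb enrichment alike in these 5.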

How the data were processed

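Reads had been aligned to mm9 with Bowtie 0.12.7, per the submitters' processing notes. The position caller, its thresholds and its control are not given in the sources used here. Per the file headers, the authors deposited for each of 5 libraries single-base positions with a score, a q-value (FDR), and a linear ratio of ChIP over control (fold enrichment) with its lower bound, and for Foxp3 intervals of 200 bp without a score. Positions were sorted by score, ties by chromosome name and coordinate. Distances ran from position to position, and from positions to Foxp3 midpoints. Chromosome spans ran from the lowest to the highest coordinate of any list, and windows of 1 Mb were those wholly inside. The functions were tested on made-up positions with known answers. The members and comparisons were chosen with earlier results of these data known. Named positions were the 10 highest scores, the 10 highest lower bounds at an FDR of at most 0.01, the 5 farthest from any ETS position and the largest groups at gaps of at most 10 kb; the third place among groups was a tie of 16. The lower bound above 1, the fold limits of 4 and 20, the windows, the ratio of the first 100 bp and the comparison of X were added after the data had been seen. Planned motif counts and gene names were not run, since no mm9 genome or annotation was used here. Alternatives were other list lengths, ranking by fold enrichment, an FDR limit and other distances. Calculations used scipy 1.17.1, pandas 2.3.3 and numpy 2.4.6 under Python 3.11.15, with matplotlib 3.10.9 for plots.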

Additional observations from a re-analysis of the deposited data

How the results depend on the processing

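Each of 7 results was recomputed under 10 to 12 alternatives, and 50 of the 76 values stayed within the 95% interval of the reported one (for the variance over mean, within 1.5 times). The share of isolated positions, 91.0% as reported, was 88.3% with the 5000 and 93.5% with the 20000 highest Cbfb scores, 97.25% with the Cbfb list ranked by fold enrichment, 92.65% with 10000 ETS positions per list, 85.1% with all ETS positions at an FDR of at most 0.01, 92.2% with a distance to ETS of 100 bp and 88.9% with 500 bp. The median fold enrichment was 6.10 with 5000 scores and 23.5 when ranked by fold enrichment. The share with a weaker ETS position was 21.5% with 10000 ETS positions, 14.6% with the FDR lists, and 12.1 and 38.7% when it could lie up to 100 and 500 bp away. The share with a neighbour within 10 kb was 4.19% with 5000 scores, 16.1% with 20000, 9.03% by fold enrichment and 7.52% with the ETS FDR lists, and 1.25 and 54.9% with neighbours within 1 and 100 kb. The density on X was 21.6 per 10 Mb with 5000 scores, 81.7 with 20000 and 73.5 by fold enrichment. The share with a lower bound above 1 was 71.6% with 5000 scores, 60.5% with 20000 and 100% by fold enrichment. The variance over mean was 2.18 in windows of 5 Mb. Longer or shorter lists change counts per length by construction. Ranking by fold enrichment takes more positions from X. There 9.51% of all deposited Cbfb positions had at least 20-fold, against 3.78% on the numbered chromosomes. Why fold enrichments were higher on X was not tested. An FDR limit of 0.01 on the Cbfb list removed nothing, so its values could not differ from the reported ones. They are counted among the 50 and say nothing of stability. No paired analysis was possible because each group other than Foxp3 and input had 1 library. With 1 library and unknown read numbers, weak binding and noise cannot be told apart at single positions.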
